A study of Mus musculus with 2 samples.

Results

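Eosinophils store cationic proteins in crystalloid granules, and 4 genes of that store are described here among the 23343 genes of the deposited tables. They are Prg2, the major basic protein of the granule core, Prg3, its homologue, Epx, the eosinophil peroxidase, and Srgn, serglycin, the proteoglycan core protein that packs basic proteins in leukocyte granules. They were chosen by name and not by their values, though with earlier results of these data known. Each matched 1 row of each table. RNA was sequenced from 2 independent sorts of native eosinophils, positive for the eotaxin receptor CCR3 and the lectin SiglecF, taken from C57BL6J mice that had no treatment, their bone marrow being pooled. Both sorts belong to 1 group, and no second condition, genotype or cell type is in the labels analysed here. The sources used here do not give the number, sex or age of the animals in each pool. The sorts are called sort 1 and sort 2 after the numbers in their titles.

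Major basic protein is made as a precursor in which an acidic propiece precedes the arginine-rich mature protein, and the propiece is removed in the maturing granule. Eosinophil peroxidase is a haem enzyme that oxidises halides and thiocyanate with hydrogen peroxide. Serglycin carries sulfated glycosaminoglycan chains on a serine-glycine repeat, and the negative charge of these chains holds basic cargo. Transcripts of granule proteins are made during development in the marrow, ahead of the release of mature cells to blood.

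The coding sequences of Prg2 and Prg3 show the acidic start and basic end of such a precursor. Read as codons from the GENCODE transcripts, Prg2 had 223 coding codons on 6 exons. Its first 111 codons held 25 acidic codons, for aspartate or glutamate, and 7 basic codons, for lysine or arginine. Its last 112 codons held 3 acidic and 18 basic codons, of which 14 were for arginine. Prg3, with 222 codons on 6 exons, had 25 acidic and 10 basic codons in its first 111, and 4 acidic and 15 basic codons in its last 111. Arginine took 9 of those 15, so the basic end of Prg3 held fewer arginine codons than that of Prg2. Epx, with 716 codons on 13 exons, had 104 basic codons, 78 of them for arginine, and 58 acidic ones. Over the whole coding sequence Prg2 had 25 basic and 28 acidic codons, and Prg3 had 25 and 29. Srgn also had more acidic than basic codons, 20 against 10 of 152 on 3 exons. The charge of its sulfated chains cannot be read from codons.

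The Srgn repeat is the stretch to which the glycosaminoglycan chains attach, and it is printed because the packing role of the protein rests on those chains. It lies at chr10:62494998-62495057 on GRCm38, the assembly called mm10, on the minus strand, in codons 90 to 109. Glycine codons are in capitals and serine codons in lower case.
Srgn serine-glycine repeat: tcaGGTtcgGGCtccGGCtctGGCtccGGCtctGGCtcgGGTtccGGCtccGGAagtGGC
The run held 10 uninterrupted pairs, and these were all the serine-glycine codon pairs in the Srgn coding sequence. A run of that length, sought in any reading frame of the protein-coding GENCODE transcripts, was found in 1 of 21877 genes, which was Srgn.

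Promoter sequences from RefSeq, build GRCm38.p6, matched 3 of the 4 members by symbol, namely Prg3, Epx and Srgn. The 250 bases before the start are printed for Prg3 and Epx, products of the eosinophil lineage, with matches to searched motifs in capitals. Each motif was searched on both strands. The core bound by the GATA factors of this lineage was written as GATAA. For the TATA box the letters were TATAA. Sites of the C/EBP factors of granulocytes were sought with the core TTGCNNAA. For PU.1, a myeloid factor, the core was GAGGAA.
Prg3 chr2:84987965-84988214, plus strand: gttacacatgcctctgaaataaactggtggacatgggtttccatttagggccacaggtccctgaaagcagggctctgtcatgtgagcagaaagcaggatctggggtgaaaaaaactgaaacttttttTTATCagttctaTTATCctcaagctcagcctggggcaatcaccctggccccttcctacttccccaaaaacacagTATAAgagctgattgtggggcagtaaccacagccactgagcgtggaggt
Epx chr11:87875537-87875786, minus strand: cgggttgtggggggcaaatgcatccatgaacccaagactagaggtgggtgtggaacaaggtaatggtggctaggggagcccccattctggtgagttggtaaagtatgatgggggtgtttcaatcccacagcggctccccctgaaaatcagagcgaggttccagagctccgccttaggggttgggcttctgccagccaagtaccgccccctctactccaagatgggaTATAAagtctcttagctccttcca
The Prg3 window held 2 GATAA matches on the reverse strand, written TTATC, at -123 to -119 and -111 to -107 from the start, and 1 TATAA at -49 to -45. The Epx window held 1 TATAA, at -24 to -20. None of the matches overlapped another. In the Srgn window before the start nearest to the counted transcript, 2 bases from it, these letters were not found, and the window before the upstream Srgn start held 1 TATAA at -98 to -94. Over all 32851 RefSeq promoter windows of this length, GATAA was present in 22.6%, TATAA in 22.8%, TTGCNNAA in 9.56% and GAGGAA in 23.3%. These matches are descriptions of letters.

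Transcripts of all 4 genes were abundant in both sorts, with Prg2 far above the rest. Levels are the RPKM values of the authors, reads scaled by transcript length and sequencing depth, and SDs over 2 sorts are themselves imprecise. Prg2 had 911 RPKM in sort 1 and 1339 in sort 2, a mean of 1125 ± 303 (SD, n = 2). It stood at rank 6 of all genes in sort 1 and rank 3 in sort 2. Srgn had 195 and 282 RPKM in sorts 1 and 2, a mean of 239 ± 61.5 (SD, n = 2), at ranks 29 and 21. Epx had 77.4 RPKM in sort 1 and 104 in sort 2, a mean of 90.5 ± 18.5 (SD, n = 2), at ranks 105 and 74. Prg3 had 28.3 and 23.4 RPKM, a mean of 25.8 ± 3.47 (SD, n = 2), at ranks 440 and 510. Prg3 was the 1 member with its higher RPKM in sort 1. For scale, the 7048 genes with at least 1 RPKM in both sorts, 30.2% of all genes and called detected here, had a median of 4.03 RPKM.

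**Figure D1:**
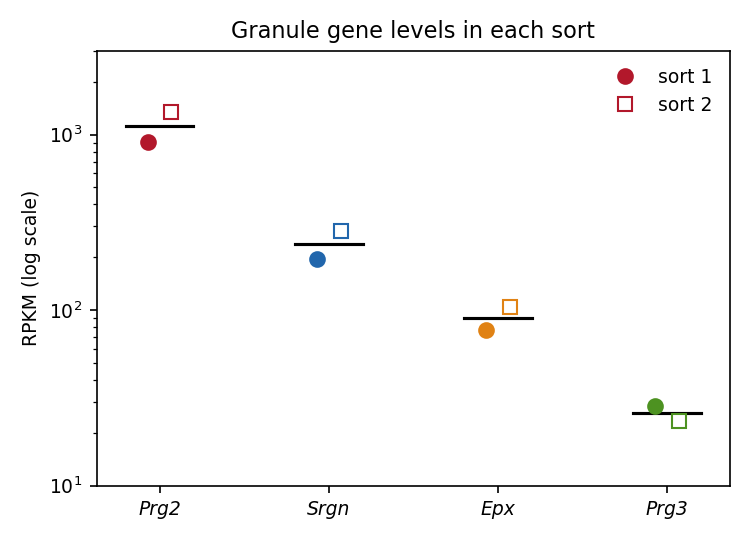
RPKM (log axis) of the 4 granule genes in sort 1 (filled circles) and sort 2 (open squares), with the mean as a line. The order Prg2, Srgn, Epx, Prg3 is the same in both sorts, and Prg3 alone has its circle above its square.

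**Figure D2:**
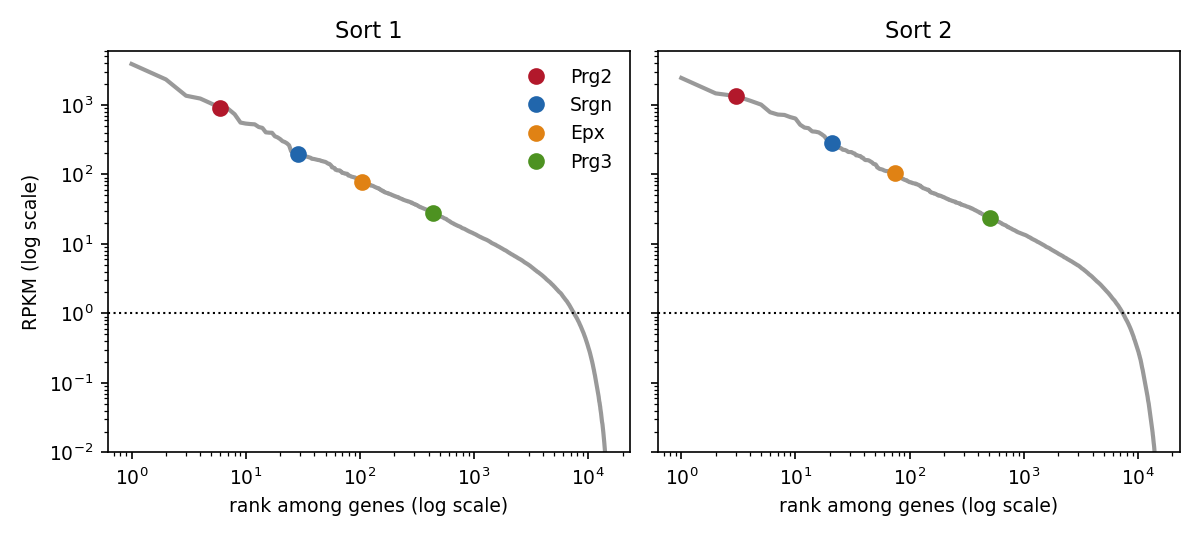
RPKM of every gene with reads against its rank (both axes log, grey line) in each sort, with the 4 granule genes as coloured points and 1 RPKM dotted. Prg2 lies at rank 6 and 3, Srgn at 29 and 21, Epx at 105 and 74, and Prg3 at 440 and 510 in sorts 1 and 2.

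The order of the 4 levels was the same in both sorts, and each step was larger than its spread between sorts. On the log2 RPKM scale Prg2 exceeded Srgn by 2.23 ± 0.02 (SD, n = 2), which is 4.66-fold in sort 1 and 4.74-fold in sort 2. Srgn exceeded Epx by 1.39 ± 0.08, or 2.52-fold and 2.73-fold in sorts 1 and 2. Epx exceeded Prg3 by 1.80 ± 0.49, or 2.74-fold in sort 1 and 4.43-fold in sort 2. With 2 sorts no test of these steps was made. In reads not scaled by length Epx stood above Srgn, with 8437 against 7423 reads in sort 1 and 11316 against 10753 in sort 2, since the Epx transcript has 2689 bases and that of Srgn 938.

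Of the reads counted to listed genes, Prg2 took 30911 of 10087743 in sort 1, or 0.306% (95% Wilson interval 0.303 to 0.310). In sort 2 it took 45573 of 9264150, or 0.492% (0.487 to 0.496). Prg3 had 1086 reads in sort 1 and 900 in sort 2. The 4 genes together held 0.474% of these counted reads in sort 1 (0.470 to 0.479) and 0.740% in sort 2 (0.734 to 0.745). Without Rn45s, the ribosomal RNA precursor, with 914623 reads in sort 1 and 89209 in sort 2, the shares were 0.522% and 0.747%. These intervals cover counting error only. Against the larger divisor that the RPKM values imply, the shares would be lower.

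The major basic proteins are neighbours on chromosome 2, and their levels were far apart. Prg2 spans 84980461 to 84983632 and Prg3 84988215 to 84993886, both on the plus strand of mm10, with 4.58 kb between them. Prg2 exceeded Prg3 by 32.2-fold in sort 1 and 57.3-fold in sort 2 in RPKM. Their coding sequences were identical at 421 of 659 aligned bases, or 63.9%, and the longest identical run between the transcripts was 23 bases. No stretch of 50 bases in the counted transcript of any of the 4 genes occurred in a GENCODE transcript of another gene, on either strand. Reads of that length from these genes would therefore match no other annotated transcript exactly.

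Genes around the 4 members were lower than the member they adjoin, with 2 exceptions, Prg2 beside Prg3 and Mpo beside Epx. Of the other 6 genes listed within 100 kb of Prg2 besides Prg3, Ssrp1, a histone chaperone subunit, had 7.02 RPKM in sort 1 and 5.71 in sort 2. Slc43a3, a nucleobase transporter, had 3.56 and 4.90, and P2rx3, an ATP-gated channel, had 2.96 and 4.09, while Tnks1bp1, Rtn4rl2 and 4930443O20Rik were at 0.0644 RPKM or below. P2rx3 runs towards Prg3 on the other strand and its listed end is 2.67 kb from that of Prg3. Around Epx, on the minus strand of chromosome 11 from 87863998 to 87875536, 2 of 7 neighbours were detected, Bzrap1 at 1.83 and 1.99 RPKM and Mpo. Mks1 ends 0.319 kb from Epx on the other strand and had 0.251 and 0.323 RPKM. Lpo, lactoperoxidase, had 3 reads in sort 1 and 0 in sort 2, and the olfactory receptor genes Olfr462, Olfr463 and Olfr464 had none. Around Srgn, on the minus strand of chromosome 10 from 62494428 to 62507755, 3 of 6 neighbours were detected. Vps26a, a retromer subunit, had 5.66 and 7.61 RPKM, 2510003E04Rik had 4.17 and 5.53, and Ddx21, a nucleolar helicase, had 1.74 and 1.72. Supv3l1 had 0.596 and 0.721 RPKM, 4930507D05Rik had 4 reads in each sort and Hkdc1 had none. RefSeq also lists a Srgn start 19690 bases upstream of the counted one. Whether reads of transcripts from that start are in the Srgn row was not tested.

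**Figure D3:**
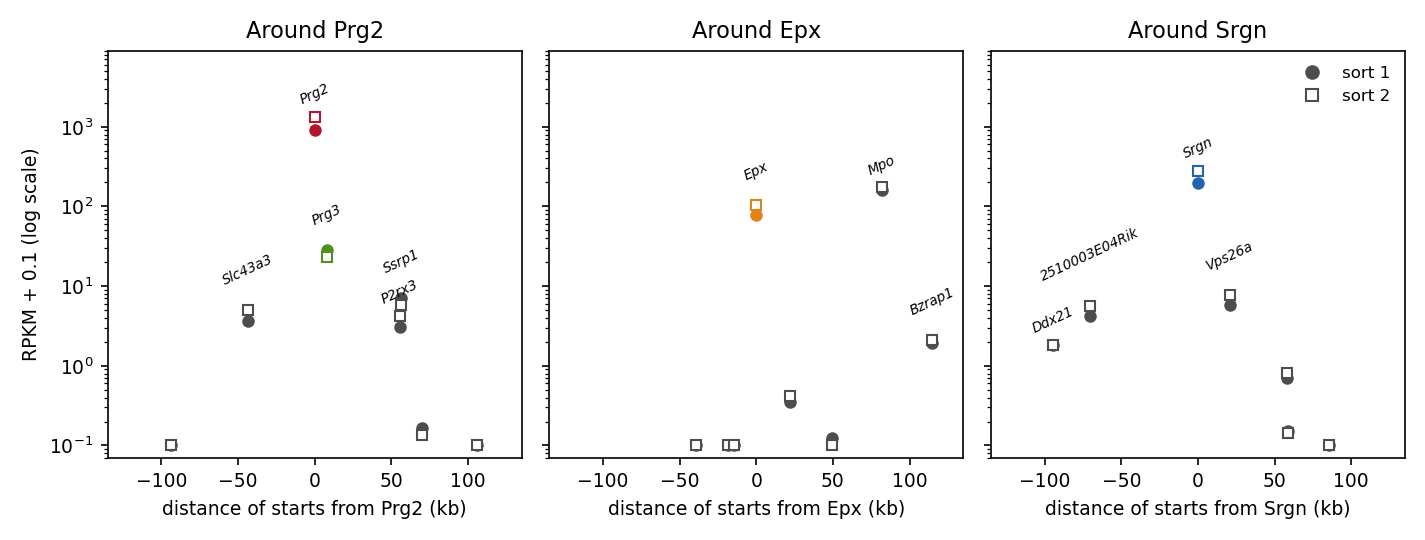
RPKM + 0.1 (log axis) of genes within 100 kb of Prg2, Epx and Srgn in sort 1 (filled circles) and sort 2 (open squares), against the distance of their starts from the member's start, positive in its direction of transcription; genes at 1 RPKM or more in both sorts are named. Prg2, Epx and Srgn stand above their neighbours except Mpo beside Epx, at 161 and 173 RPKM, and Prg3 stands below Prg2 alone.

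Mpo, myeloperoxidase, the peroxidase of neutrophil primary granules, exceeded Epx in both sorts. It had 161 RPKM in sort 1 and 173 in sort 2, so Epx was at 0.481 and 0.597 of its level, a difference of -0.90 ± 0.22 on the log2 scale (SD, n = 2). Of the other haem peroxidases reported here, Lpo had the reads given above, and Pxdn, peroxidasin, had none in either sort, where 3 reads is the limit that a count of 0 allows. In the 8 genes of haem synthesis, which supply the peroxidase cofactor, 4 were detected, led by Alas1, the first enzyme of the pathway, at 13.4 ± 1.43 RPKM. Fech, which inserts iron, had 3.52 ± 1.05 and Urod 3.24 ± 0.137 (SD, n = 2).

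Markers of the gate and of other cells give the setting of these levels. The eosinophil markers Ccr3, Siglecf, Il5ra, Adgre1 and Alox15 were detected in both sorts, Ptgdr2 had 1.03 and 0.475 RPKM, and the 6 summed to 986 RPKM in sort 1 and 1067 in sort 2. Primary granule and precursor genes of neutrophils, 6 of 6 detected, had a summed level of 345 RPKM in sort 1 and 432 in sort 2. Of this Mpo held 161 and 173 and Igsf6 91.7 and 140. Whether Igsf6 marks neutrophil precursors alone was not tested. Late neutrophil genes, 10 of 10 detected, summed to 4226 and 3950, led by Retnlg at 2321 and 2439. Basophil and mast cell markers, 6 of 11 detected, summed to 30.0 and 33.3 RPKM, with Tpsb2, Tpsab1 and Mcpt4 at 0 reads. Basophils also express Prg2, and most leukocytes express Srgn. Monocyte and macrophage markers summed to 214 and 146 RPKM with 5 of 12 detected, of which Lyz2 held 175 and 121. Markers of B and plasma cells, T and NK cells, erythroid cells and megakaryocytes summed to 36.3 RPKM or less in each sort. The lists differ in the number and choice of genes, and the eosinophil list leaves out Prg2 and the ribonucleases. Their sums therefore do not measure the shares of cell types. In sorted bulk RNA a lower share of cells that express a gene and less of its RNA per cell cannot be told apart. The part of other cells in the levels of the 4 genes was not tested.

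Serglycin had the highest RPKM of the proteoglycan core proteins in the list, though not the most reads. Among 24 other core proteins, 2 were detected, Cd44, the hyaluronan receptor that can carry such chains, at 67.8 ± 1.63 RPKM and Gpc1, a glypican, at 1.46 ± 0.636 (SD, n = 2). In reads Cd44 exceeded Srgn, Srgn having 7423 in sort 1 and 10753 in sort 2, and Cd44 12453 and 12090. In sort 1 alone 4 of the 24 reached 1 RPKM, since Agrn, agrin, had 1.97 in sort 1 and 0.911 in sort 2, and Sdc3, a syndecan, 1.09 and 0.292. Srgn had 195 RPKM in sort 1 and 282 in sort 2, against a median of 0.0230 and 0.0210 over the 24. Of 40 genes that build, sulfate or supply glycosaminoglycan chains, 20 were detected, with medians of 1.15 and 1.21 RPKM. Chst15, which adds a further sulfate to chondroitin 4-sulfate, led with 27.7 RPKM in sort 1 and 26.7 in sort 2. Ndst1, a heparan sulfate N-deacetylase and sulfotransferase, had 10.6 ± 2.32 and Chst13, a chondroitin 4-O-sulfotransferase, 9.37 ± 0.831 (SD, n = 2). Xylt1, which starts a chain by adding xylose to serine, had 4.75 and 4.69 RPKM, and its homologue Xylt2 had 0.209 and 0.144.

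The ribonuclease Ear1 was at a level like that of Prg2. Among 10 entries of the eosinophil-associated ribonucleases, 6 were detected, led by Ear1 at 1232 RPKM in sort 1 and 1462 in sort 2. Prg2 was at 0.739 of the Ear1 level in sort 1 and 0.916 in sort 2. Ear12 and Ear3, which share 1 entry, had 466 and 517 RPKM and Ear7 had 279 and 411. Because members of this family are nearly alike in sequence, how reads were divided among them is uncertain. Of 13 genes of the granule membrane and its release, 12 were detected. The 3 highest means differed by less than their spread, with Snap23, a membrane fusion protein, at 38.8 ± 0.359 RPKM, Lamp1, a lysosomal membrane protein, at 38.2 ± 5.51 and Cd63, a granule tetraspanin, at 38.0 ± 12.9 (SD, n = 2).

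Prg2, Srgn and Epx were lower in sort 1 than in sort 2, and Prg3 was higher. Ratios are of TMM-scaled reads, which correct for library composition, sort 1 over sort 2. They were 0.647 for Prg2 (exact 95% interval 0.638 to 0.656), 0.659 for Srgn (0.639 to 0.678), 0.711 for Epx (0.691 to 0.732) and 1.15 for Prg3 (1.05 to 1.26), counting error only. On the log2 scale these are -0.63, -0.60, -0.49 and 0.20. None passed 2-fold, the size taken here as a difference between the sorts, while 1485 of 12347 genes with at least 10 reads did, or 12%. At 1.5-fold Prg2 and Srgn passed, against 27.6% of all genes. With the deposited RPKM values neither passed, and after correction for GC content Prg2 and Epx did. Among the 3329 genes with at least 1000 reads over both sorts the median absolute log2 ratio was 0.22. A ratio at least as far from 1 was found in 5.83% of those genes for Prg2, 6.88% for Srgn, 13.4% for Epx and 53.9% for Prg3. With 1 library per sort there is no replicate test of these ratios, so no p-value is given.

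**Figure D4:**
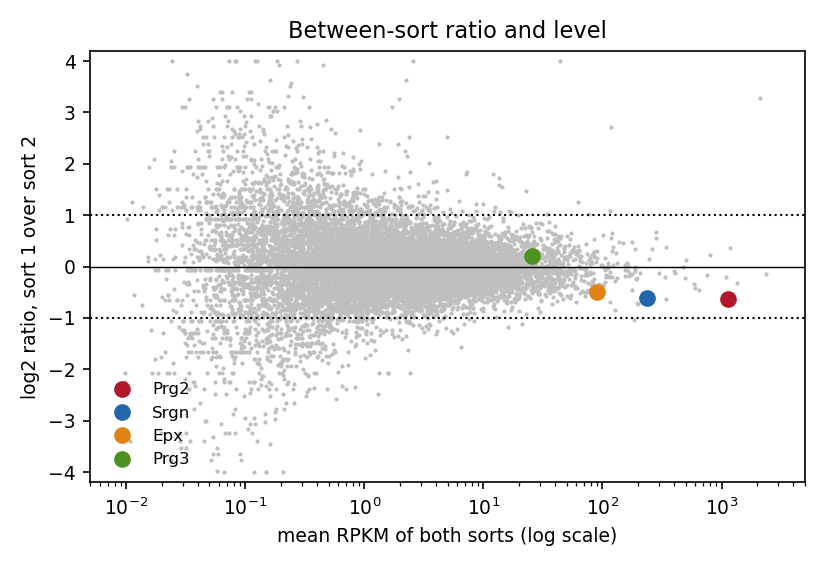
Log2 ratio of TMM-scaled reads, sort 1 over sort 2, against mean RPKM (log axis) for genes with at least 10 reads over both sorts and reads in each (grey, drawn at 4 or -4 where beyond), with the granule genes in colour and 2-fold dotted. Prg2, Srgn and Epx lie between -0.63 and -0.49 and Prg3 at 0.20.

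Ratios between members within a library do not depend on a scaling factor between libraries, but a gene-specific effect such as that of GC content can move them. The ratio of Prg2 to Srgn in sort 1 was 0.983 times that in sort 2 (95% interval from counting error 0.951 to 1.02), and 0.776 times after correction for GC content, outside that interval. The ratio of Prg2 to Epx was 0.910 times (0.881 to 0.939) and that of Srgn to Epx 0.926 times (0.889 to 0.964). The ratio of Prg2 to Prg3 was 0.562 times (0.514 to 0.615), that of Srgn to Prg3 0.572 times (0.521 to 0.628) and that of Epx to Prg3 0.618 times (0.563 to 0.678). The correction turned the ratios of Prg2 and Srgn to Epx to 1.02 and 1.32 times. Those to Prg3 stayed below 1, at 0.547 times for Prg2, 0.705 times for Srgn and 0.534 times for Epx. The proportion of Prg3 to the other members thus differed between the libraries by more than counting error, in the same direction with and without the correction.

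Values that move with the sorts stand beside these ratios. For scale, the 3329 genes with at least 1000 reads over both sorts had a median log2 ratio of -0.06. The share of all genes higher in sort 1 was not computed. List medians and counts below are not corrected for GC content, which ratios between the sorts followed. How far it accounts for them was not tested. Xist, the RNA of the inactive X chromosome, had 47487 reads in sort 1 and 5 in sort 2, and the Y-linked genes Kdm5d, Ddx3y, Eif2s3y and Uty had 0 in sort 1 and 355 to 756 in sort 2. These are the counts of female animals in sort 1 and male animals in sort 2. Sex of the pooled animals and sort therefore cannot be told apart. The primary granule and precursor genes of neutrophils had a median log2 ratio of -0.47, with 0 of 6 higher in sort 1 and Igsf6 the lowest at -0.68. The late neutrophil genes had 0.23, with 8 of 10 higher. Monocyte and macrophage markers had a median of 0.43, with 8 of 12 higher in sort 1. Among them C1qa, C1qb, C1qc and Cd163 were more than 2-fold higher. Cx3cr1, with 2 reads in sort 1 and 26 in sort 2, was more than 2-fold lower. Ly86, Ccr2 and F13a1 were also lower in sort 1, at -0.96, -0.93 and -0.79. Erythroid markers had a median of -0.54, with 3 of 9 more than 2-fold lower in sort 1 and 1 more than 2-fold higher. Of those lower, Hba-a1 and Hba-a2 had the same low counts, 14 reads in sort 1 and 32 in sort 2. Whether they count the same reads was not tested. Of the granule ribonucleases with at least 10 reads, 0 of 7 were higher in sort 1, with a median of -0.32. Genes of the granule membrane and its release went the other way, with 8 of 12 higher and a median of 0.21. Those of haem synthesis had 6 of 8 higher in sort 1, with a median of 0.23. Of the 6 eosinophil markers 1 was higher in sort 1, Ptgdr2, a prostaglandin receptor with 110 reads in sort 1 and 51 in sort 2, past 2-fold, and the median of the list was -0.14. Over the 113 pathway genes, 9 of the 88 with at least 10 reads passed 2-fold, near the 12% of all genes. The part of cell content or sex in the ratios of the 4 genes was not tested.

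Ratios between the sorts also followed GC content. Across 8675 genes with at least 100 reads, which are not independent replicates and share both libraries, the Spearman correlation of the log2 ratio with GC content was 0.538. Srgn had the lowest GC content of the 4 at 42.9%, and Epx the highest at 56.3%, with Prg2 at 52.9% and Prg3 at 51.5%. The 500 genes nearest in GC content had a median log2 ratio of -0.25 for Srgn, 0.26 for Epx, 0.09 for Prg2 and 0.05 for Prg3. Relative to these medians the log2 ratios were -0.35 for Srgn, -0.75 for Epx, -0.72 for Prg2 and 0.15 for Prg3. The order of the ratios among Prg2, Srgn and Epx therefore changed with the correction, and the direction of none of the 4 did.

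**Figure D5:**
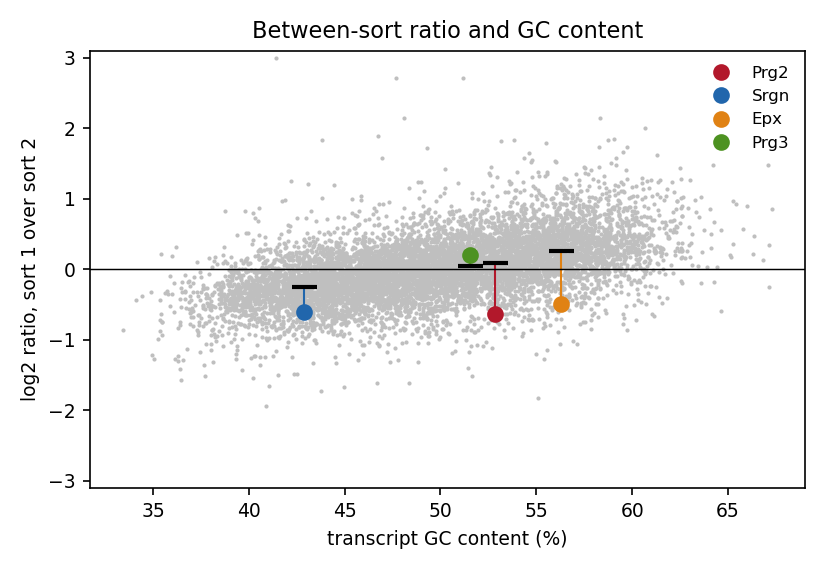
Log2 ratio, sort 1 over sort 2, against transcript GC content for 8675 genes (grey, drawn at 3 or -3 where beyond), with the granule genes in colour and the median of the 500 genes nearest in GC content as a black bar. Prg2 and Epx lie 0.72 and 0.75 below their bars, Srgn 0.35 below and Prg3 0.15 above.

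Genes most like each member were sought by the distance of log2(RPKM + 1) in the 2 sorts, among 6937 other genes with at least 100 reads in each. With 2 libraries such likeness describes level and ratio and nothing more. Nearest to Prg2 were Malat1, a nuclear noncoding RNA, at a distance of 0.295, Ear1 at 0.453 and Actb, cytoplasmic actin, at 0.702. Nearest to Srgn were F5, coagulation factor V, at 0.106 with 183 RPKM in sort 1 and 274 in sort 2, Ear6 at 0.395 and Lcp1, an actin-bundling protein of leukocytes, at 0.430. Epx had Serinc3 at 0.0645, the survival protein Mcl1 at 0.135 and the chaperone Hsp90b1 at 0.183. Prg3, in a denser range of levels, had Tubb5 at 0.0133, Rps28 at 0.0264 and Atp6v0d1 at 0.0274. Members of the ribonuclease family were thus among the 3 nearest genes for Prg2 and for Srgn, and not for Epx or Prg3.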

How the data were processed

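RNA of 2 sorts was made into stranded poly(A) libraries with dUTP, per the labels' protocols, and aligned with STAR 2.4.0c to mm10, per the submitters' processing notes. No source used here names the counting program or its strand setting. The authors deposited read counts and RPKM values for 26099 rows of RefSeq transcripts, and both were summed here by gene symbol. For the 4 members the deposited counts, RPKM values and GENCODE transcript lengths imply a divisor of 40.5 to 40.6, in units of 1000000 reads, above the table totals of 10087743 and 9264150 reads, so RPKM values are lower than the table totals alone would give. TMM factors came from edgeR 4.0.16 and size factors from DESeq2 1.42.0, in R 4.3.3, with the rest in Python 3.11.15 and SciPy 1.17.1. The ratio and its 2-fold call were tested on simulated data that held counting error only, without the further spread between the real sorts. The edgeR quasi-likelihood test was not run, since there is 1 group. The labels do not say how many animals each sort drew on.

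Members, lists and alternatives were chosen with earlier results of these data known. Named were the members, the 3 highest genes of each of 7 pathway lists, the 3 nearest genes to each member, and genes within 100 kb. Beyond this rule Sdc3, Xylt1, Xylt2, single marker genes and the sex-linked genes were named after their values were seen. List genes were matched to deposited symbols through RefSeq accessions, and Siglecf, Adgre1, Ptgdr2 and Spi1 are Siglec5, Emr1, Gpr44 and Sfpi1 in the tables. Transcript GC content was taken from GENCODE, matched by accession. A gene of the pathway lists is not reported here.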

Additional observations from a re-analysis of the deposited data

How the results depend on the processing

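Of the alternatives tried, none changed the direction of the ratio of a member between the sorts. With total reads in place of TMM the log2 ratios, sort 1 over sort 2, were -0.68 for Prg2, -0.55 for Epx and -0.66 for Srgn, and with the deposited RPKM values -0.56, -0.42 and -0.53. After correction for GC content they were -0.72, -0.75 and -0.35, and the ratios of Prg2 and Srgn to Epx, sort 1 over sort 2, turned from below 1 to 1.02 and 1.32. Ratios between members after that correction, and members past 1.5-fold under other scalings, were added after seeing the data. With DESeq2 size factors the 4 ratios stayed within their counting intervals. At 1.5-fold, 2 members and 3411 genes passed in place of 0 and 1485 at 2-fold, and with no filter on reads 4084 genes passed 2-fold. In CPM, not scaled by length, the log2 difference of Prg2 over Srgn was 2.07, that of Epx over Prg3 3.31, and that of Srgn over Epx turned to -0.13. By CPM the ranks of mean level were 11 for Prg2, 124 for Srgn, 111 for Epx and 1961 for Prg3. At a minimum of 5 RPKM 30 of the 113 pathway genes were detected, in place of 56. For proteoglycan core proteins the count of 2 became 4 at 0.5 RPKM or without sort 2, and 9 at 1 CPM.

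Without either replicate in turn, mean levels ranged from 911 to 1339 RPKM for Prg2, 195 to 282 for Srgn, 77.4 to 104 for Epx and 23.4 to 28.3 for Prg3. The difference of Epx over Prg3 ranged from 1.45 to 2.15. No paired analysis was possible because there is 1 group. Each sort has 1 library, so the ratio between sorts has no replicate. Depth does not limit the 4 genes, whose lowest count was 900 reads.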

Other observations

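Regulators of eosinophil and myeloid development were mostly at lower levels than the granule genes. Of 14 factors 11 were detected, with medians of 2.89 RPKM in sort 1 and 3.37 in sort 2. Spi1, the myeloid factor PU.1, led with 61.2 and 38.6 RPKM, followed by Id2, an inhibitor of basic helix-loop-helix factors, at 24.0 ± 3.69 and Trib1, a pseudokinase that lowers C/EBP alpha protein, at 20.5 ± 1.88 (SD, n = 2). None of the 14 passed 2-fold between the sorts, against 12% of all genes tested, and 10 of 14 were higher in sort 1. Prg2, Srgn and Epx were lower in sort 1, and no relation between the factors and these genes was tested.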
